A study of Mus musculus with 26 samples.

Results

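The genes described here are 34 genes of the cell cycle and of DNA replication, taken by symbol from a fixed list, out of 24340 genes in the deposited tables. Every one of the 34 had a row in both tables and a mean of at least 1 FPKM (fragments mapped to a gene, scaled to its transcript length and to the library size), so none was lost to the filter on low values. By role, 15 act at the G1/S boundary or in replication, 17 act in G2 and mitosis, and 2, Foxm1 and Mybl2, are transcription factors. Their transcripts were measured by bulk polyA RNA sequencing of whole mouse forelimbs at E13.5 in 26 libraries, made under 2 ways of deleting Hic1, a gene for a zinc finger transcriptional repressor.

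The conventional strategy has 3 knockout libraries (KO, Hic1 -/-), 3 heterozygous libraries (HET, Hic1 +/-) and 3 wild type libraries (WT, Hic1 +/+). The conditional strategy uses the Prrx1Cre driver (PxCre), which recombines in limb mesenchyme, so other cell types of the forelimb keep Hic1. It has 7 knockout libraries (KO, PxCre; Hic1 f/f), 5 heterozygous libraries (HET, PxCre; Hic1 f/+) and 5 control libraries (Hic1 f/+, no Cre). The conditional controls are labelled wildtype but carry a floxed allele, and they differ from the heterozygotes by Cre as well as by recombination of that allele. Column names also carry letters whose meaning the labels do not give: CH for replicate 1 of each conventional genotype and CL for replicates 2 and 3, and NZ, OA, OB and OC in the conditional table. NZ holds 2 KO, 1 HET and 2 control libraries, OA holds 1 HET library, OB holds 5 KO, 3 HET and 1 control libraries, and OC holds 2 control libraries. Nothing in the labels ties a replicate to its own embryo or litter. The p-values therefore cover only how far these libraries differ from each other, which may be technical.

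Hic1 stood at 1.23 to 2.56 FPKM in conventional KO, 30.9 to 37.3 in HET and 49.1 to 64.2 in WT libraries, and at 2.76 to 6.16 FPKM in conditional KO, 27.97 to 34.9 in HET and 52.4 to 65.8 in control libraries, in the order of the labels. Tbx5, the forelimb transcription factor gene, was at 41.9 to 70.6 FPKM in every library, against 5.40 to 9.18 FPKM for Tbx4 and 0.840 to 5.24 FPKM for Pitx1, which mark the hindlimb. FPKM summed to 410482 to 490248 per conventional library and 436559 to 497121 per conditional library; no counts were used, so the depth behind each value is unknown. One library stood apart: conventional KO replicate 1 had a median correlation of 0.869 with the other conventional libraries, where every other library reached at least 0.970. Conventional results are therefore given with and without it.

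A cell that commits to division passes from G1 into S phase when cyclin E and CDK2 become active and the retinoblastoma family releases E2F factors, which switch on replication genes. CDC6 and CDT1 load the ring of MCM2 to MCM7, the replicative helicase, onto origins; PCNA is the clamp that holds the polymerases, and ribonucleotide reductase and thymidylate synthase supply the nucleotides. In G2, B-MYB (Mybl2) and FOXM1 join the MuvB complex and switch on genes for cyclin B, the mitotic kinases, the spindle and the kinetochore. In the limb bud at this stage, proliferating mesenchyme surrounds cartilage, tendon and muscle that have begun to differentiate.

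The promoters of most members carry short sequences through which these factors are known to act. RefSeq promoters of the GRCm38.p6 assembly, 250 bases before to 50 bases after the start site, matched 29 of the 34 members with 30 promoters, 2 of them for Mcm7; Ccna2, Ccne2, Mcm4, Aurkb and Foxm1 had no match. The cell cycle homology region bound by MuvB (TTTGAA or TTTAAA, both strands) was found in 14 of 15 mitotic members and 4 of 13 G1/S members. Over all 27025 genes, counted by any promoter as the members were, the share was 30.6%. The G1/S share, 30.8%, was near it. The CCAAT box (CCAAT, both strands), bound by NF-Y, was found in 14 of 15 mitotic and 9 of 13 G1/S members, against 41.1% of all genes. E2F-type sequences (TTCCCGC or TTCGCGC or TTGGCGC or TTGCCGC, both strands, which may overlap one another) were found in 9 of 13 G1/S and 3 of 15 mitotic members, against 10.9% of all genes. The core of the reported HIC1 sequence (GGGCACC or GGGCAAC, both strands) was found in 1 of 29 members, Birc5, against 8.23% of all genes. A match is a stretch of letters and not a bound site, and a missing match says only that these letters are not in the window.

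The promoters of 2 replication and 2 mitotic members are shown, all of genes called between OB and NZ libraries below. They are the helicase subunits Mcm5 and Mcm7, Cdc20, which activates the anaphase-promoting complex, and Plk1, a mitotic kinase. Other members called there are not printed. Among these, Mcm2 and Aurka held cell cycle homology and CCAAT letters and no E2F-type letters. Rrm2 held E2F-type, CCAAT and cell cycle homology letters. Each line gives the 250 bases before the start site in the direction of the gene, with the E2F-type, CCAAT and cell cycle homology letters in capitals.
Mcm5 (chr8:75109259-75109508, plus strand): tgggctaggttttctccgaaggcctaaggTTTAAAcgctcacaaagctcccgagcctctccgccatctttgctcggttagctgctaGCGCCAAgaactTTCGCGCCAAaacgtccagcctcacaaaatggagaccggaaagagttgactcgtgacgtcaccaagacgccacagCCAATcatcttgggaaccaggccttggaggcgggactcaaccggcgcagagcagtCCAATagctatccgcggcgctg
Mcm7 (chr5:138171884-138172133, minus strand): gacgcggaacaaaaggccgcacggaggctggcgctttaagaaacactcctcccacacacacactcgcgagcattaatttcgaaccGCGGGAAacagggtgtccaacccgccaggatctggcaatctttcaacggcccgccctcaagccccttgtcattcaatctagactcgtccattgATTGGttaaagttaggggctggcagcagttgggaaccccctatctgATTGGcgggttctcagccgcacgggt
Cdc20 (chr4:118437344-118437593, minus strand): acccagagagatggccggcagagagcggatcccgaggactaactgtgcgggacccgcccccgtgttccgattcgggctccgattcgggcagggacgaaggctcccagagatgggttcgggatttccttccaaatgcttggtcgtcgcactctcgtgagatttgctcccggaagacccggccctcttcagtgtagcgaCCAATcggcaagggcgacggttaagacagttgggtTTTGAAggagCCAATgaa
Plk1 (chr7:122159185-122159434, plus strand): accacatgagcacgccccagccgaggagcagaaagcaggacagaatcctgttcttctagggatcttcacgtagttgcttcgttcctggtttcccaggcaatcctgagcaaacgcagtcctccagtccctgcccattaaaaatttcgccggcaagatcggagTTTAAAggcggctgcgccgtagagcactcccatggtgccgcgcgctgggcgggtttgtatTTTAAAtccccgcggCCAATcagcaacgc
In the 250 bases shown, Mcm5 holds a run in which 2 E2F-type sequences on opposite strands overlap, a few bases from a further E2F-type sequence. Mcm7 holds a single one there, read on the opposite strand. Past its start site, from bases 18 and 21 on, this Mcm7 promoter holds E2F-type sequences that overlap as well. The other Mcm7 promoter is not printed. Cdc20 and Plk1 hold no E2F-type letters in the 250 bases shown, and both have the cell cycle homology letters and CCAAT close to the start site.

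The members were well expressed, and their levels per transcript length differed by role less than from gene to gene. In the conventional table the means over all 9 libraries ran from 7.60 FPKM for Ccne2, a G1/S cyclin, to 122 FPKM for Pcna. In the conditional table they ran from 8.23 FPKM for Mybl2 to 187 FPKM for Pcna. Pcna stood at the 95.9 and 97.5 percentile of the tested genes in the conventional and conditional tables, and Ccne2 at the 33.1 and 56.2 percentile. The median of the G1/S members was 66.8 FPKM conventional and 60.1 FPKM conditional, and that of the mitotic members was 43.7 and 52.4 FPKM. Pcna, Top2a (which untangles DNA), Birc5 (survivin, of the chromosomal passenger complex), Mcm7 and Mcm6 held the first 5 places in both tables.

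In the conditional table the members varied little: the highest library exceeded the lowest by 1.22 to 1.74 times, with a median of 1.44. Rrm1, the large subunit of ribonucleotide reductase, had the smallest spread over the 17 libraries (SD 0.08 on the log2(FPKM + 1) scale), and Rrm2, its small subunit, the largest (0.23). The median SD of the members was 0.14, against 0.12 for all tested genes. The conventional table spread wider for a few members, from 1.16 times to 34.3 times between lowest and highest library, with a median of 1.70 times. There Cdk1, the mitotic kinase, had the smallest SD (0.07) and Kif11, the kinesin that pushes spindle poles apart, the largest (1.09), against a median of 0.22 for the members and 0.22 for all tested genes.

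**Figure D1:**
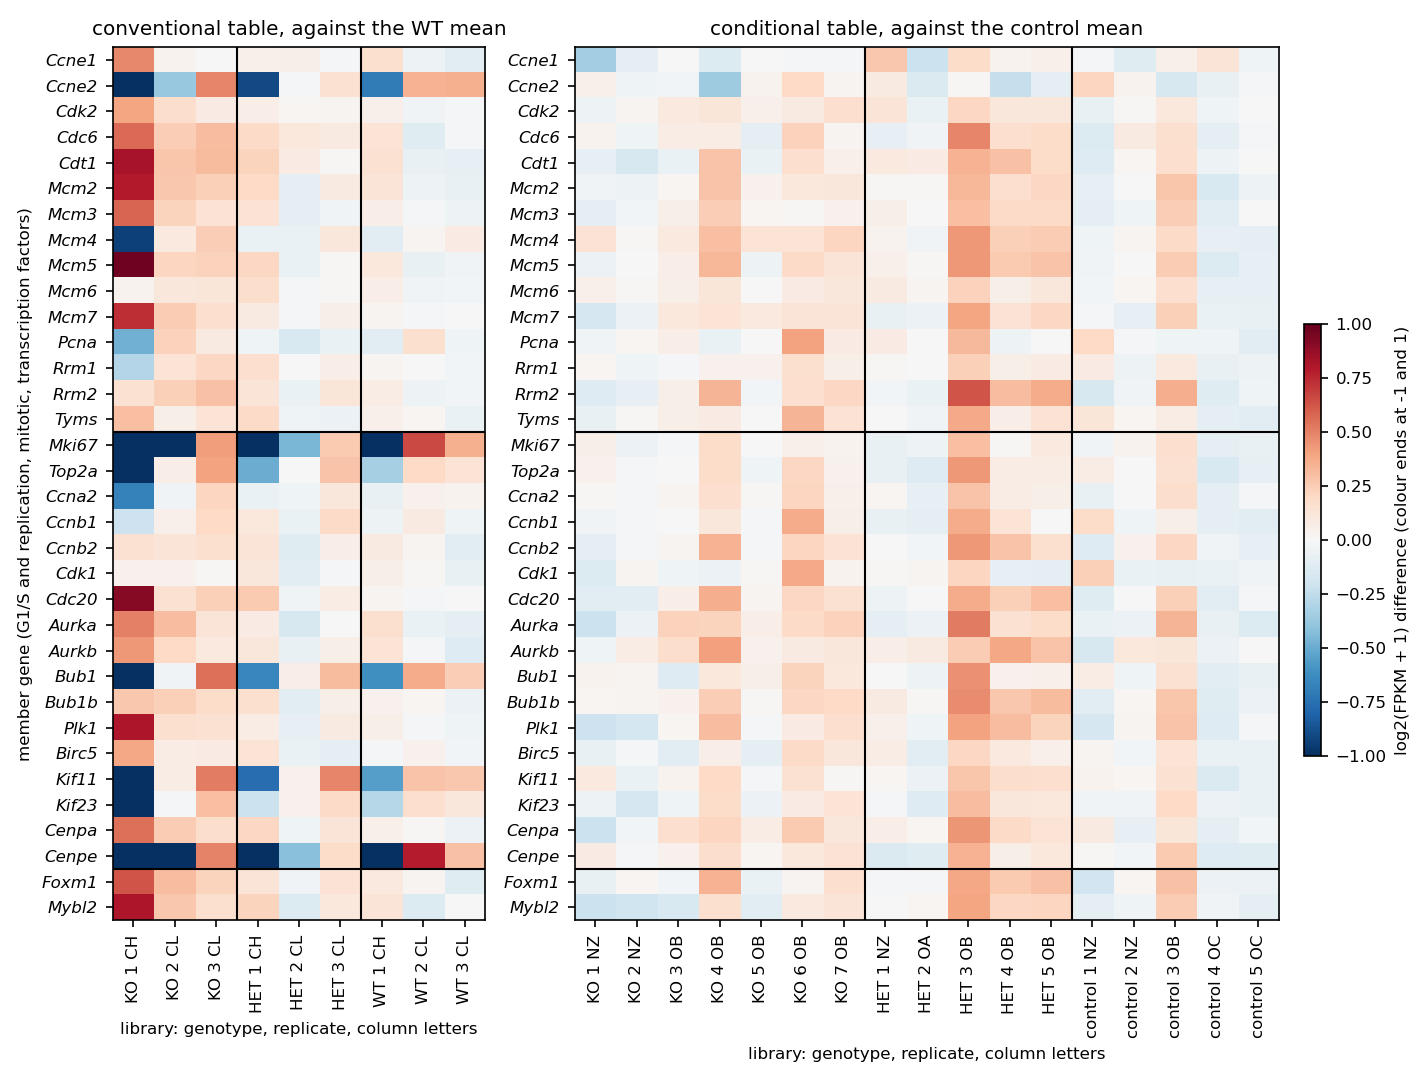
Heat map of the 34 members (down the page) in every library (across), as the log2(FPKM + 1) difference from the WT mean (conventional, left) or the control mean (conditional, right). KO replicate 1 of the conventional table holds both the strongest red and the strongest blue, and in the conditional table red columns are OB libraries, with HET replicate 3 the reddest.

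In the conventional forelimbs, no member passed the test between KO and WT, while 17 of the 34 were higher in all 3 KO than in all 3 WT libraries. limma called 0 of 34 members at an adjusted p under 0.05, where 0.0236% of the 12717 tested genes were called. Unadjusted p was under 0.05 for 11 members and for 898 of all tested genes. The non-overlapping members were 9 of 15 G1/S genes (Cdk2, Cdc6, Cdt1, Mcm2, Mcm3, Mcm5, Mcm7, Rrm2 and Tyms), 6 of 17 mitotic genes (Ccnb2, Cdc20, Bub1b, Plk1, Birc5 and Cenpa) and both transcription factors; 6.57% of all tested genes were higher in the same way. None of the members was lower in all KO than in all WT libraries, against 7.86% of all tested genes. In whole tissue, fewer cells of a type and less RNA per cell cannot be told apart.

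Among the licensing factors, Cdt1 was at 47.6, 32.2 and 33.1 FPKM in KO replicates 1 to 3, 30.9, 27.96 and 26.6 FPKM in HET replicates 1 to 3 and 29.5, 25.0 and 24.9 FPKM in WT replicates 1 to 3. The 3 KO values all lay above the 3 WT values, and KO replicate 1 was the highest. The KO minus WT difference was 0.47 ± 0.16 on the log2(FPKM + 1) scale (SE, limma adjusted p 0.596). Cdc6, which loads the helicase together with CDT1, was at 11.7, 9.19 and 9.65 FPKM in KO, 8.82, 8.23 and 8.15 FPKM in HET and 8.47, 6.88 and 7.52 FPKM in WT libraries. Its groups KO and WT also did not overlap, with a difference of 0.37 ± 0.13 (SE, limma adjusted p 0.596).

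The helicase subunits split. Mcm2 was at 108, 74.5 and 72.9 FPKM in KO, 70.8, 57.9 and 65.6 FPKM in HET and 67.4, 59.4 and 58.5 FPKM in WT libraries. Mcm7 was at 138, 98.1 and 92.2 FPKM in KO, 87.5, 81.4 and 85.5 FPKM in HET and 83.4, 81.0 and 81.6 FPKM in WT libraries. For both genes every KO library was above every HET and every WT library. Mcm4, of the same ring, was instead at 32.4 FPKM in KO replicate 1, with 67.4 and 74.6 FPKM in the other two KO libraries, against 58.2, 64.1 and 66.6 FPKM in WT libraries. KO replicate 1 thus held the highest value of the table for Mcm2, Mcm3, Mcm5 and Mcm7 and the lowest for Mcm4, so the subunits of one complex moved apart in that library. Mcm6 was at 90.03, 95.4 and 95.5 FPKM in KO and 91.9, 85.7 and 86.3 FPKM in WT libraries, which overlap through KO replicate 1 alone.

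Foxm1 was at 37.6, 29.97 and 28.1 FPKM in KO, 26.3, 23.3 and 26.6 FPKM in HET and 25.7, 24.4 and 22.0 FPKM in WT libraries. All KO values were above all others, and the KO minus WT difference was 0.39 ± 0.13 (SE, limma adjusted p 0.596). Cenpa, the centromeric histone, was at 109, 88.5 and 84.0 FPKM in KO and 76.8, 74.7 and 71.1 FPKM in WT libraries, a difference of 0.33 ± 0.12 (SE, limma adjusted p 0.596). With all libraries these were, with Cdt1 and Cdc6, the 4 members with the smallest p. Without KO replicate 1 the differences were 0.30 for Cdt1, 0.28 for Cdc6, 0.27 for Foxm1 and 0.21 for Cenpa. The smallest p then belonged to Mcm7 and Rrm2, at 0.21 and 0.26.

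Other mitotic members fell apart by library. Top2a was at 16.4, 110 and 140 FPKM in KO, 74.7, 106 and 129 FPKM in HET and 83.7, 121 and 116 FPKM in WT libraries. Kif11 was at 2.58, 27.9 and 38.2 FPKM in KO, 15.2, 27.3 and 37.5 FPKM in HET and 17.7, 32.4 and 32.1 FPKM in WT libraries. In each genotype the CH library, replicate 1, had the lowest value of both genes, and KO replicate 1 was far the lowest of all 9. Mki67, which encodes the proliferation marker Ki-67, was at 5.17, 10.1 and 41.2 FPKM in KO, 9.89, 22.0 and 36.9 FPKM in HET and 14.7, 48.8 and 39.4 FPKM in WT libraries. Cenpe, a kinetochore kinesin, was at 1.17, 2.94 and 13.47 FPKM in KO, 2.86, 6.69 and 10.6 FPKM in HET and 3.87, 16.7 and 11.6 FPKM in WT libraries. For Mki67 and Cenpe, KO replicate 2 was low as well, and their transcripts, of 10061 and 7910 bases, are the longest of the members. The groups overlapped for all 4 genes.

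**Figure D2:**
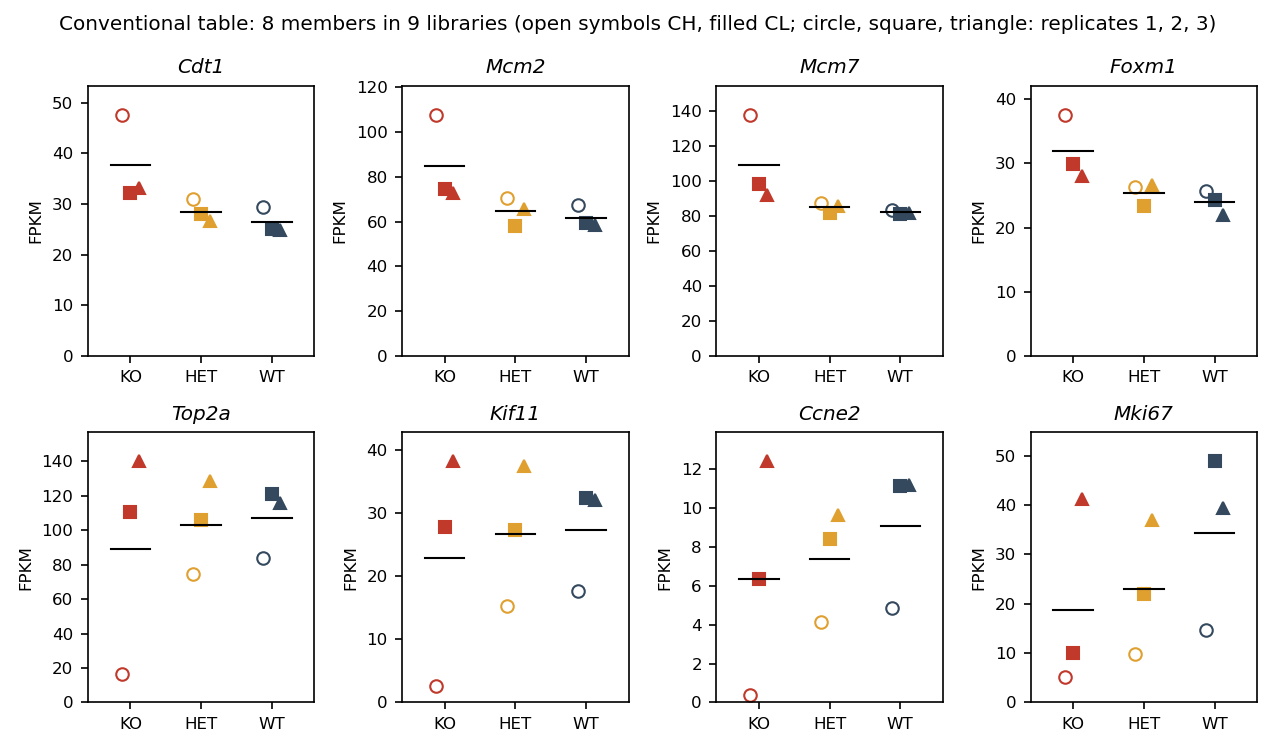
FPKM of 8 members (1 panel each) in the conventional KO, HET and WT libraries; each symbol is a library (open for CH, filled for CL) and the line is the group mean. For Cdt1, Mcm2, Mcm7 and Foxm1 the 3 KO libraries lie above the 3 WT libraries, while for Top2a, Kif11 and Ccne2 the open KO symbol is the lowest of the panel.

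How far a member stood up or down in KO replicate 1 followed the base composition of its transcript and, less closely, its length. Over all conventional genes with a matched transcript, this library changed by 1.07 on the log2 scale for each 10 percentage points of G + C, against 0.24 in HET replicate 1, 0.20 in WT replicate 1 and -0.14 to 0.10 in the CL libraries. All 7 members with 45% G + C or less (Ccne2, Top2a, Ccnb1, Rrm1, Bub1, Kif11 and Cenpe) had their lowest value of the table there, with a median of -2.41 against the table median on the log2(FPKM + 1) scale. All 13 members over 50% had their highest value there, with medians of 0.47 (8 members up to 55%) and 0.68 (5 members over 55%). Of the 14 members between, 5 were at their lowest and 5 at their highest. Across the 34 members Pearson's r between G + C and the difference was 0.82 and Spearman's rho 0.92, as a description of 1 library. Between log2 transcript length and the difference Pearson's r was -0.48. Over all conventional genes with a matched transcript, KO replicate 1 changed by -0.17 on the log2 scale for each doubling of length. The members' own medians were 49.4% G + C in the G1/S class and 47.3% in the mitotic class, against 50.5% over all tested genes with a transcript.

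The coding stretches below, read from GENCODE M21 transcripts on GRCm38, show that range for 2 members at the low end and 2 at the high end; each is the window of 120 bases whose composition is nearest to that of its whole transcript, with G and C in capitals.
Ccne2 (36.3% G + C, coding bases 160 to 279, chromosome 4): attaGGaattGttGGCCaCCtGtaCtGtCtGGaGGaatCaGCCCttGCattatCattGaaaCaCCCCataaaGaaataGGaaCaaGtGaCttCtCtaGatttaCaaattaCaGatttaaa
Kif11 (42.2% G + C, coding bases 136 to 255, chromosome 19): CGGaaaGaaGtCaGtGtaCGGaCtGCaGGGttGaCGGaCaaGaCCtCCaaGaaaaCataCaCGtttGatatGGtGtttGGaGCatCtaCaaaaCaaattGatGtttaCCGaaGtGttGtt
Cdc20 (55.6% G + C, coding bases 166 to 285, chromosome 4): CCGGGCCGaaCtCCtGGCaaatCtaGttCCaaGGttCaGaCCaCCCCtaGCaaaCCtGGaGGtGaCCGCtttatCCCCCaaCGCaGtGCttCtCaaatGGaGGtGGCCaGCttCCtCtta
Cdt1 (58.8% G + C, coding bases 247 to 366, chromosome 8): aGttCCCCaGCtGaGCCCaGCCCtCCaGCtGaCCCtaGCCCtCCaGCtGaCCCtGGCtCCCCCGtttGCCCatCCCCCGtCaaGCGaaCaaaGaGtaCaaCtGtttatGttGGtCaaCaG
Ccne2 was at 0.361 FPKM in KO replicate 1, with 6.32 and 12.4 FPKM in the other two KO libraries, and at 4.86, 11.1 and 11.2 FPKM in WT libraries. Cdc20 was at 128 FPKM in KO replicate 1, with 75.4 and 80.4 FPKM in the other two KO libraries, and at 69.0, 66.9 and 67.7 FPKM in WT libraries. Ccne2 was thus lowest and Cdc20 highest in the same library.

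**Figure D3:**
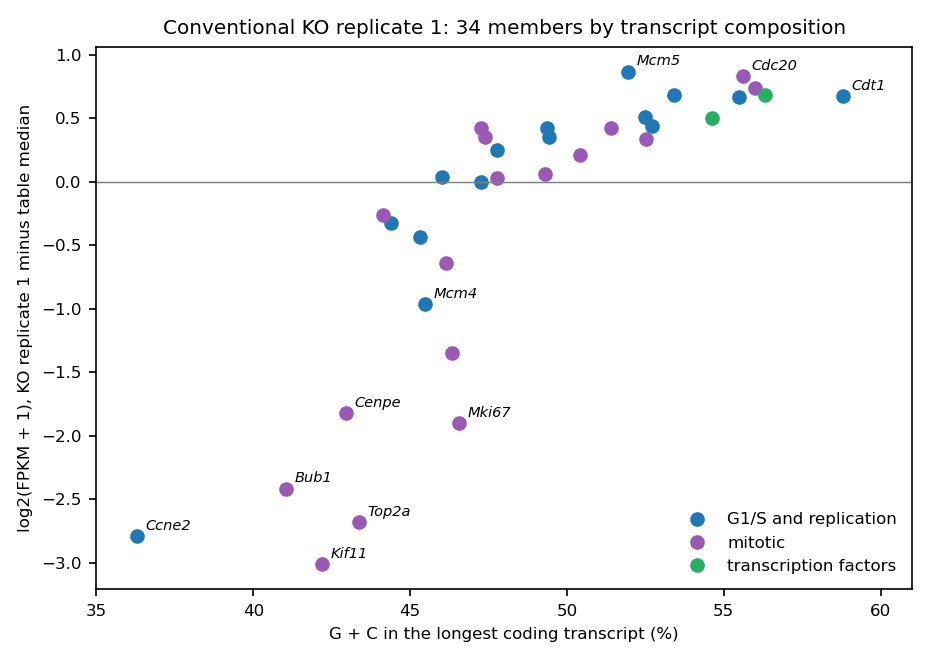
Each point is a member: G + C of its longest coding transcript in percent (x) against the log2(FPKM + 1) value of conventional KO replicate 1 minus the median of the 9 conventional libraries (y). Members at or under 45% lie below 0 and members over 50% lie above 0.

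Without KO replicate 1 most members lay higher in KO than in WT by small amounts, while Mki67 and Cenpe lay lower. With all libraries, 12 of 15 G1/S and 10 of 17 mitotic members had a positive KO minus WT difference, where 47.9% of all tested genes did, with medians of 0.22 and 0.03 on the log2(FPKM + 1) scale, against -0.02 for all tested genes. Without that library 15 of 15 and 15 of 17 were positive, where 49.7% of all tested genes were, with medians of 0.17 and 0.15. The negative differences, Mki67 at -0.55 ± 0.75 and Cenpe at -0.44 ± 0.73 (SE), were the largest in size of all members. Then 0 members were called, where 0.0393% of all tested genes were called, and the lowest limma adjusted p was 0.26. KO replicates 2 and 3 both lay above all 3 WT libraries for 20 members, with Mcm4, Mcm6 and Rrm1 added to the 17 named above, against 11.6% of all tested genes. Within the CL libraries, KO replicates 2 and 3 lay above WT replicates 2 and 3 for 23 members, against 26.3% of all tested genes, and below them for none, against 22.5%. Kif11, Ccne2 and Top2a were not among the 23.

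The number of members called differed between settings. With all 9 libraries weighted by their agreement with the rest, where KO replicate 1 had a weight of 0.044, 12 members were called, all higher in KO: Cdk2, Cdc6, Cdt1, Mcm2, Mcm3, Mcm5, Mcm7, Rrm2, Aurka, Bub1b, Cenpa and Foxm1. Under that setting 9.33% of all tested genes were called, 4.38% of all tested genes as higher and 4.95% as lower. Cdt1 was then at 0.35 ± 0.06 (SE, limma adjusted p 0.0169). With transcript G + C and length removed from each library 0 members were called, where 0.696% of the 11920 genes with a transcript were called. With the column letters also in the model 2 members were called higher, where 3.01% of those genes were called: Rrm1 at 0.27 ± 0.05 (limma adjusted p 0.0391) and Rrm2 at 0.34 ± 0.07 (limma adjusted p 0.0397). With G + C and length removed and KO replicate 1 left out, 0 members were called, where 1.22% of those genes were called, and the lowest limma adjusted p was 0.0646.

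Markers of other cell types moved beside these members in KO against WT, and their part in the result was not tested. All 3 primitive erythroid globins were higher in KO on average (median 0.92 with and 0.71 without KO replicate 1, on the log2 scale), with summed levels of 2555 to 5590 FPKM in KO and 2139 to 2440 FPKM in WT libraries. All 7 contractile muscle genes were lower on average (medians -0.44 and -0.63), with sums of 365 to 574 FPKM in KO and 543 to 598 FPKM in WT libraries. Of the 7 cartilage genes 5 were lower with and 6 without that library (medians -0.30 and -0.49), with sums of 760 to 1254 FPKM in KO and 975 to 985 FPKM in WT libraries. Tendon genes had medians of -1.003 and -0.74, and 1 of 4 was called lower without KO replicate 1; the 5 epidermal genes had medians of -0.53 and -0.46. No other gene of these lists was called in either fit, and no marker was at 0 in any library. Limb mesenchyme genes summed to 653.6 to 703.4 FPKM in KO and 604.7 to 634.5 FPKM in WT libraries, without overlap. That sum hides differences between its genes: Prrx1 ran from 32.9 to 150.6 FPKM over all conventional libraries. Neuron genes summed to 10.15 to 12.71 FPKM in KO and 14.46 to 17.18 FPKM in WT libraries, also without overlap. The sums of the endothelial, macrophage and definitive erythroid genes overlapped between KO and WT libraries.

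In the conventional HET libraries most members lay near their WT levels, and none was called. limma called 0 of 34 between HET and WT, where 0% of all tested genes were called; 0 members had an unadjusted p under 0.05, against 47 of all tested genes. Medians of the difference were 0.05 for G1/S and 0.00 for mitotic members, against 0.01 for all tested genes. Differences ran from -0.58 for Mki67 to 0.13 for Cdc6, with Cenpe at -0.55 and Ccne2 at -0.25; the SE was 0.77 for Mki67, 0.76 for Cenpe and 0.77 for Ccne2. The smallest p belonged to Cdc6 (0.13 ± 0.13, SE, limma adjusted p 1). No member had all 3 HET libraries above or below all 3 WT libraries, against 2.43% of all tested genes above and 1.38% below.

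No member was called between conventional KO and HET either, 0 of 34, where 0.00786% of all tested genes were called, and 5 had an unadjusted p under 0.05, against 583 of all tested genes. The smallest p belonged to Aurka, a centrosomal mitotic kinase, at 50.7, 44.2 and 38.9 FPKM in KO and 37.5, 31.6 and 35.2 FPKM in HET libraries. All 3 KO values were above all 3 HET values, with a difference of 0.34 ± 0.13 (SE, limma adjusted p 0.697). Medians were 0.17 for G1/S and 0.04 for mitotic members, and 0.17 and 0.12 without KO replicate 1. The mitotic median was -0.013 without HET replicate 2 and 0.097 without HET replicate 1. KO replicates 2 and 3 lay above all 3 HET libraries for 13 members, against 8.08% of all tested genes.

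CH is replicate 1 of each genotype and CL replicates 2 and 3, so the letters of the conventional columns set a single replicate number against the other two. The fit takes the 9 libraries as independent, and its p-values are too small if libraries of one number share an origin. With genotype in the model 13 of 34 members were called, 6 higher in CH (Cdt1, Mcm2, Mcm3, Mcm5, Aurka and Mybl2) and 7 lower (Ccne2, Bub1, Mki67, Cenpe, Kif11, Kif23 and Top2a). Over all tested genes 31.3% were called, 16.9% higher and 14.4% lower, so the members' share is near that of the table. The higher calls rested on the setting: with median-of-ratios scaling 0 members were called higher and 6 lower, where 2.99% and 12% of all tested genes were. Without a filter on low values 0 were called higher and 2 lower (1.93% and 4.39% of all genes), and with library weights 12 higher and 7 lower (27.9% and 17.9%). With a correlation between same-numbered libraries in the model, estimated at -0.31, 17 were called higher and 10 lower (41.6% and 29%). A negative estimate narrows the SE of this contrast, so that fit cannot allow for a shared origin of same-numbered libraries. Without the letters in the model, same-numbered libraries deviated together from their group means, with correlations of 0.244 to 0.717. Kif11 had the greatest difference, -1.70 ± 0.41 (SE, limma adjusted p 0.0358); its CH libraries were at 2.58, 15.2 and 17.7 FPKM and its CL libraries at 27.3 to 38.2 FPKM. All CH libraries lay below all CL libraries for 6 members, against 15.8% of all tested genes, and above them for none, against 18.9%. Between 0 and 11 members were called when each library was left out in turn, and calls over all tested genes ran from 1 to 3952. Without HET replicate 3, WT replicate 2 or WT replicate 3 the counts were 0 members and 1 gene in all, and without HET replicate 2 they were 0 members and 513 genes. Without KO replicate 2 they were 2 members and 262 genes, without KO replicate 3 5 members and 1447 genes, and without KO replicate 1 9 members and 3272 genes.

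In the conditional forelimbs, the members in KO lay close to the control libraries and no member passed the test. limma called 0 of 34 between KO and control, where 0.263% of the 12918 tested genes were called; 0 members had an unadjusted p under 0.05, against 802 of all tested genes. Differences ran from -0.09 to 0.15 on the log2(FPKM + 1) scale, with medians of 0.06 for G1/S and 0.07 for mitotic members, against 0.01 for all tested genes. Mcm4 had the smallest p. It was at 57.3, 62.5 and 69.9 FPKM (lowest, median and highest of 7) in KO libraries, against 54.97, 57.6, 64.8, 53.5 and 53.3 FPKM in controls 1 to 5. The groups overlapped, with a difference of 0.15 ± 0.07 (SE, limma adjusted p 0.820).

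The KO and control libraries did not share their column letters evenly: OB holds 5 of 7 KO and 1 of 5 control libraries. With the letters in the model the medians turned to -0.06 for G1/S and -0.05 for mitotic members, with 11 of 15 and 16 of 17 negative. Mcm7 shows the values within a letter. In NZ it was at 79.6 and 86.0 FPKM in KO and 88.7 and 84.4 FPKM in control libraries, and in OB at 95.9 to 98.1 FPKM in KO and 105 FPKM in the single control library. The KO and control values of this gene overlapped in NZ, the KO libraries were below the control in OB, and OB was above NZ in both genotypes. Bub1b, of the spindle checkpoint, had a difference of 0.11 ± 0.08 (SE, limma adjusted p 0.968) without the letters and -0.03 with them.

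HET libraries were slightly higher than controls for nearly all members, and none passed the test. limma called 0 of 34 between HET and control, where 0.00774% of all tested genes were called; 5 members had an unadjusted p under 0.05 (Aurkb, Bub1b, Cdt1, Mcm4 and Mcm5), against 725 of all tested genes. Positive differences were found for 33 of 34 members, with medians of 0.12 (G1/S) and 0.10 (mitotic), against 0.00 for all tested genes. Aurkb, the kinase of the chromosomal passenger complex, had the smallest p and was at 32.3, 32.8, 36.9, 40.6 and 37.7 FPKM in HET, against 27.4, 33.2, 33.6, 29.6 and 30.9 FPKM in control libraries. These overlap, and the difference was 0.21 ± 0.08 (SE, limma adjusted p 0.747). With the letters in the model the medians were 0.07 and 0.03, and without HET replicate 3 they were 0.07 and 0.03 as well. HET replicate 3 held the highest value of the conditional table for 29 of 34 members.

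KO against HET gave small negative differences and no call. limma called 0 of 34 members, where 0.0774% of all tested genes were called; 2 had an unadjusted p under 0.05, Cdt1 and Mybl2, against 598 of all tested genes. Cdt1 was at 21.2, 22.7 and 29.2 FPKM (lowest, median and highest of 7) in KO, against 25.5, 25.3, 30.6, 29.3 and 27.2 FPKM in HET libraries. The ranges overlap through 2 KO libraries, and the difference was -0.18 ± 0.07 (SE, limma adjusted p 0.930). Mybl2 was at 6.72, 7.30 and 9.02 FPKM in KO, against 7.95, 8.09, 10.8, 9.34 and 9.42 FPKM in HET libraries, a difference of -0.21 ± 0.09 (SE, limma adjusted p 0.930). Medians were -0.07 and -0.05; they were -0.01 and -0.01 without HET replicate 3, and -0.10 and -0.09 with the letters in the model. No member separated all libraries of 2 conditional genotypes. Over all tested genes, KO lay wholly above control for 0.364% and below it for 0.325%, HET above control for 0.224% and below it for 0.294%, and KO above HET for 0.209% and below it for 0.132%. Within OB, the 5 KO libraries all lay below the 3 HET libraries for 4 members (Ccne1, Mcm7, Bub1b and Mybl2), against 3.05% of all tested genes, and above them for none, against 2.52%.

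**Figure D4:**
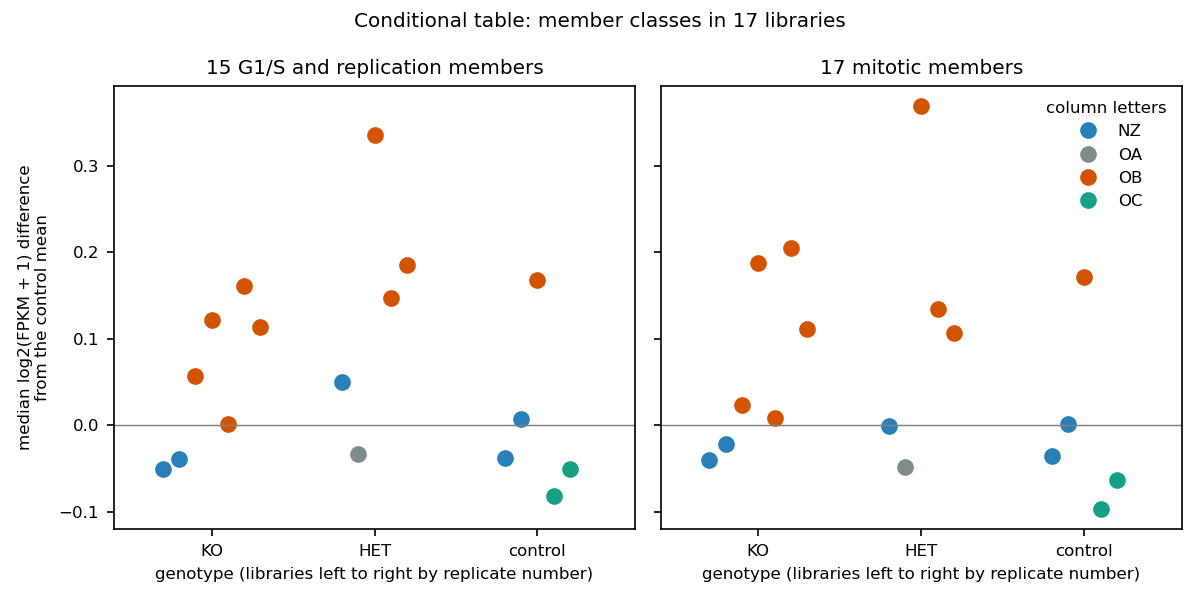
Median log2(FPKM + 1) difference from the control mean over the 15 G1/S members (left) and the 17 mitotic members (right), for each of the 17 conditional libraries, ordered by genotype and coloured by column letters. The OB libraries hold the highest points in each genotype, HET replicate 3 leads with 0.34 and 0.37, and both OC libraries lie below 0.

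In the conditional table members were called between the column letters, while 0 were called between genotypes in the fits above and under each alternative run for them. Between OB and NZ libraries, with genotype in the model, limma called 14 of 34 members, all higher in OB, where 9.18% of all tested genes were called, 5.93% as higher and 3.25% as lower. They were 6 G1/S genes (Mcm2, Mcm3, Mcm4, Mcm5, Mcm7 and Rrm2), 7 mitotic genes (Aurka, Cdc20, Plk1, Kif23, Cenpa, Bub1b and Ccnb2) and Mybl2. Positive differences were found for 33 members, with medians of 0.17 (G1/S) and 0.17 (mitotic), against 0.02 for all tested genes; Ccne2 alone was negative, at -0.13.

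Among the G1/S genes, Mcm7 was at 95.9, 98.1 and 118 FPKM in OB (lowest, median and highest of 9), against 88.7, 79.6, 86.0, 84.6 and 84.4 FPKM in NZ libraries. The sets do not overlap, and the difference was 0.27 ± 0.04 (SE, limma adjusted p 0.0141). Rrm2, the subunit whose level limits ribonucleotide reductase, was at 61.2, 77.6 and 96.7 FPKM in OB, against 55.8, 56.9, 58.7, 60.7 and 61.2 FPKM in NZ libraries. The lowest OB library was just above the highest NZ library, and the difference was 0.36 ± 0.07 (SE, limma adjusted p 0.0162). Mcm2 was at 60.2, 66.8 and 75.0 FPKM in OB and 56.0 to 59.6 FPKM in NZ libraries, also without overlap, a difference of 0.21 ± 0.05 (SE, limma adjusted p 0.0242).

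Among the mitotic genes, Aurka was at 35.7, 39.9 and 49.2 FPKM in OB, against 29.1 to 32.6 FPKM in NZ libraries, and Cdc20 was at 59.7, 69.1 and 75.8 FPKM in OB, against 53.8 to 58.6 FPKM in NZ libraries. Neither gene overlapped between the sets; the differences were 0.36 ± 0.06 and 0.30 ± 0.05 (SE, limma adjusted p 0.0145 for both). Plk1 was at 37.7, 44.5 and 50.7 FPKM in OB and 32.8, 33.8 and 39.5 FPKM (lowest, median and highest of 5) in NZ libraries, which overlap, with a difference of 0.31 ± 0.06 (SE, limma adjusted p 0.0149). Mybl2 was at 7.08, 9.02 and 10.8 FPKM in OB and 6.72, 7.40 and 7.95 FPKM in NZ libraries, which also overlap, with a difference of 0.27 ± 0.06 (SE, limma adjusted p 0.0235). The promoters of these genes, Mybl2 apart, stand among those with CCAAT letters above. Pcna, Cdk1, Ccnb1, Rrm1 and Mki67 were not among the called members.

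**Figure D5:**
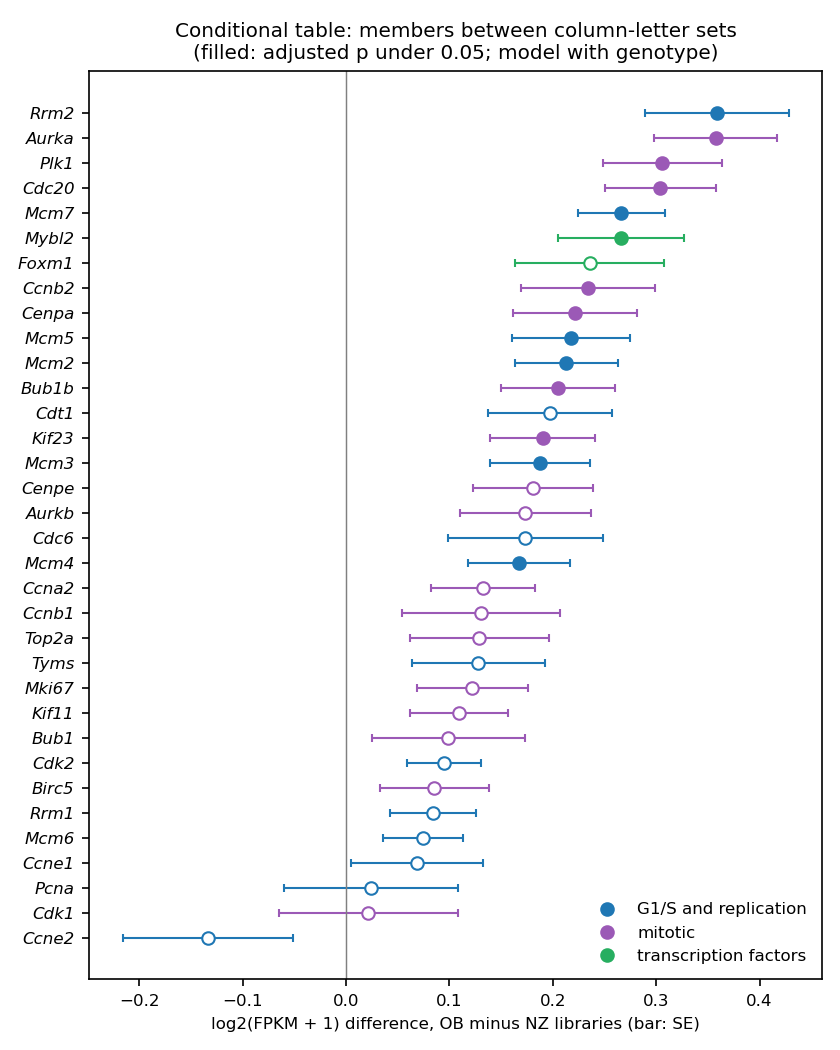
Difference between OB and NZ libraries on the log2(FPKM + 1) scale (x, bars are SE) for each of the 34 members (down the page), from the model with genotype. Filled symbols are the 14 members called, all to the right of 0, and Ccne2 at -0.13 is the lowest.

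All OB libraries lay above all NZ libraries for 5 members (Mcm2, Mcm7, Rrm2, Cdc20 and Aurka), against 1.83% of all tested genes, and below them for none, against 0.797%. Within KO, the 5 OB libraries lay above the 2 NZ libraries for 12 members, against 8.28% of all tested genes, and below them for none, against 4.98%. The number called rested on single libraries, over the whole table as well as the members. Without HET replicate 1 (the only HET library in NZ) 0 members were called, where 0.0774% of all tested genes were called, and without control replicate 3 (the only control in OB) 0 members, where 0.108% were. It was 8 without KO replicate 2, KO replicate 7, control replicate 1 or control replicate 2, where at most 716 genes were called in all; the highest was 17, with 1595 genes in all. Without HET replicate 1 the medians were 0.13 (G1/S) and 0.13 (mitotic), and without control replicate 3 they were 0.16 and 0.17.

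The OC libraries, 2 controls, lay below NZ for 31 of 34 members in the fit with genotype, by small amounts and with no call. Between OB and OC limma called 0 of 34 members, where 0.0542% of all tested genes were called (0.00774% higher, 0.0464% lower). Unadjusted p was under 0.05 for 22 members, against 2174 of all tested genes. All OB libraries lay above both OC libraries for 24 members, against 8.03% of all tested genes, and below them for none, against 6.83%. That count takes no account of genotype, and OC holds controls only. With library weights 13 members were called, all higher in OB, where 7.32% of all tested genes were called, and without HET replicate 3 Aurka and Mcm7 were called higher, where 0.24% were. Medians of OB minus OC were 0.21 (G1/S) and 0.25 (mitotic). Between NZ and OC 0 members were called, where 0.00774% of all tested genes were called, and 0 had an unadjusted p under 0.05, against 559 of all tested genes; the medians were 0.08 and 0.07. In the F test over NZ, OB and OC 6 members were called (Mcm7, Aurka, Cdc20, Plk1, Rrm2 and Mcm2), where 3% of all tested genes were called.

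Markers of differentiated tissue moved beside the members between OB and NZ, and their part in the result was not tested. Of the 7 cartilage genes 3 were called lower in OB and 6 were negative (median -0.79), with sums of 235 to 487 FPKM in OB and 346 to 531 FPKM in NZ libraries. Of the tendon genes 1 of 4 was called lower (median -0.42), and of the epidermal genes 2 of 5 (median -0.43). The 7 contractile muscle genes were all negative with 0 called (median -0.48), with sums of 265 to 840 FPKM in OB and 529 to 842 FPKM in NZ libraries. Of the primitive erythroid globins 2 of 3 were called higher (median 0.56), with sums of 2794 to 4562 FPKM in OB and 2560 to 4419 FPKM in NZ libraries, while 1 of 5 tested definitive erythroid genes and 1 of 4 macrophage genes were called lower. Of the neuron genes 1 of 4 was called higher, of the endothelial genes 0 of 4 were called, and all 6 limb mesenchyme genes were positive with 0 called (median 0.27). No marker was at 0 in any library.

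Of the other genes of the pathway, some were called between the letters. None was called between genotypes in the main fits or without conventional KO replicate 1. The other genotype settings, library weights among them, were not examined for these genes. Of 80 further genes listed, 78 were tested, and 0 were called in each of the 6 genotype comparisons, the conventional KO comparisons without KO replicate 1 included. The nearest was Ccnd1, which encodes cyclin D1 of early G1, in conditional KO against control, at 0.28 ± 0.06 (SE, limma adjusted p 0.0675). In conventional KO against WT, Mcm10, Uhrf1, Ccnd1 and Chaf1a, genes of origin firing, methylation maintenance, G1 entry and chromatin assembly, had the smallest p, with differences of 0.34, 0.45, 0.39 and 0.40 (limma adjusted p 0.580 to 0.596). Without KO replicate 1, 24 of 25 licensing and replication genes, 21 of 23 mitosis genes, 7 of 7 checkpoint kinase and CDC25 genes, 8 of 13 Rb and E2F family genes, 4 of 5 G1 cyclin and kinase genes and 1 of 5 tested inhibitors of cyclin-dependent kinases had a positive KO minus WT difference, where 49.7% of all tested genes did. In that fit the smallest p belonged to 2 genes with negative differences. They were Cdkn2c, an inhibitor of CDK4 and CDK6, at -0.37 ± 0.08 and Pttg1, the securin that holds back separase, at -0.69 ± 0.16 (SE, limma adjusted p 0.176 and 0.188). Pold1, a replicative polymerase, and E2f7, a repressing E2F, came next at 0.24 and 0.32 (limma adjusted p 0.208 and 0.264).

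Between OB and NZ 13 of the 78 were called higher and 0 lower, where 5.93% of all tested genes were called higher and 3.25% lower. The 13 were 5 of 25 licensing and replication genes, 3 of 23 mitosis genes, 3 of 7 checkpoint kinase and CDC25 genes and 2 of 13 Rb and E2F family genes. None was among the 5 G1 cyclins and kinases or the 5 inhibitors of cyclin-dependent kinases. Calls over all tested genes fell to 0.0774% without HET replicate 1 and to 0.108% without control replicate 3. Pole, a replicative polymerase, was at 0.34 ± 0.06 and E2f1, an activating E2F, at 0.21 ± 0.04 (SE, limma adjusted p 0.0145 and 0.0149). The 5 inhibitors all had negative differences, with a median of -0.18. Between CH and CL 11 of the 78 were called higher and 17 lower, where 16.9% and 14.4% of all tested genes were, among them Smc2, of the condensin complex, at -2.36 ± 0.39 (SE, limma adjusted p 0.0221).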

How the data were processed

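Whole forelimbs were sequenced as polyA RNA with a stranded TruSeq mRNA kit, per the labels' protocols. The authors deposited FPKM in 1 table per strategy; the unit is given per the file headers. The submitters' processing notes name bcl2fastq, TopHat2, Bowtie2 and Cufflinks with build mm10, and no versions; annotation, multiread handling and counting strand are not given in the sources used here. Values were compared within a table only. Reads of overlapping or near-identical genes could have been split by the authors' counting.

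Groups came from the labels. The 12717 conventional and 12918 conditional genes averaging 1 FPKM or more were tested as log2(FPKM + 1) with limma 3.58.1 in R 4.3.3 (lmFit, contrasts.fit, eBayes with trend). The 3 genotypes of a table shared 1 estimate of the spread; tests were two-sided with Benjamini-Hochberg adjustment over all tested genes, and a gene was called under 0.05. Fold changes on this scale understate those of low genes. The same steps were tested on simulated data. Column letters were tested with genotype in the model, for letters with at least 2 libraries. Depth is unknown, since no counts were used.

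In the conventional table, libraries with the same replicate number deviated together from their group means (correlations of 0.244 to 0.717 over the 9 pairs), so the numbers were taken to pair them, from the data and not from a label. The letters follow the numbers there, so these correlations hold any effect of the letters too. The replicate block is among the alternatives. Library weights were fitted gene by gene, because the REML fit did not converge on that table. Alternatives covered pseudocount, filter, scaling (median of ratios), block, letters, weights and left-out libraries. Removal of transcript G + C and length (splines with 4 degrees of freedom per library, longest coding transcripts of GENCODE M21), its combinations with the letters and without KO replicate 1, a correlation between same-numbered conventional libraries in CH minus CL (limma's duplicateCorrelation), and the counts of non-overlapping libraries were added after seeing the data.

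The members, the 80 further pathway genes and the marker lists were chosen with earlier results of these data known. All members could be named; of the other pathway genes, up to 4 per comparison with the smallest p. Promoters come from RefSeq (GRCm38.p6), coding stretches and positions from GENCODE M21.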

Additional observations from a re-analysis of the deposited data

Results flagged for a closer look

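Among 102 sets of a member's values in a conditional genotype, 14 had 1 library beyond Dixon's critical gap from the rest. Chance gives about 1 in 20 for a single set. The sets share the same libraries and are not independent, so that rate gives no expected count for them. In the 7 KO libraries, replicate 6 stood above the others for Pcna (238 FPKM, others 172 to 191), Ccnb1 (65.5 FPKM, others 49.2 to 54.6) and Cdk1 (77.4 FPKM, others 54.0 to 60.8), and replicate 4 for Mcm3 (68.4 FPKM, others 53.8 to 60.01). Replicate 1 stood below the other KO libraries for Ccne1 (22.0 FPKM, others 25.6 to 28.2). In the 5 HET libraries, replicate 3 stood above the others for Bub1 (31.4 FPKM, others 21.8 to 23.4). In the 5 controls, replicate 3, the only OB control, stood above the other four for Mcm3 (68.5 FPKM, others 53.2 to 57.6), Mcm7 (105 FPKM, others 84.4 to 88.7), Rrm2 (80.4 FPKM, others 55.8 to 60.7), Aurka (43.2 FPKM, others 30.9 to 32.6), Kif23 (33.6 FPKM, others 27.8 to 28.4) and Mybl2 (9.71 FPKM, others 7.40 to 7.75). Control replicate 1, in NZ, stood above the others for Pcna (207 FPKM, others 168 to 178) and Cdk1 (70.4 FPKM, others 56.3 to 58.0).

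Ccne1 had KO differences of opposite sign under the 2 strategies with all libraries in the fits, neither of them called. Its difference was 0.17 on the log2(FPKM + 1) scale in conventional KO against WT, with all 3 KO libraries above the WT mean, and -0.09 in conditional KO against control, with all 7 KO libraries below the control mean. The conventional difference rested on KO replicate 1, at 41.7 FPKM the highest of the conventional libraries. It was 0.02 without that library, and -0.02 with all libraries and G + C and length removed. The difference between the strategies was not tested, since the tables were made separately.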

How the results depend on the processing

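Values are members called of 34, or medians on the log2(FPKM + 1) scale. Conventional KO against WT had 0 calls in the main fit, 12 with library weights, 0 with G + C and length removed and 2 with G + C and length removed together with the letters. Its mitotic median of 0.03 became 0.068 with weights, 0.077 with G + C and length removed, with or without the letters, and 0.16 with that removal and without KO replicate 1; leaving out 1 library at a time gave -0.0053 to 0.15, the lowest without WT replicate 3 and the highest without KO replicate 1. In conventional KO against HET the mitotic median of 0.038 ran from -0.013 (without HET replicate 2) to 0.12 (without KO replicate 1). In conditional KO against control, the letters turned the G1/S median of 0.062 to -0.059 and the mitotic median of 0.066 to -0.050 (-0.053 and -0.043 with G + C and length also removed), and the Bub1b difference of 0.11 to -0.032 (-0.024). CH against CL had 13 calls, where 3977 of all tested genes were called. It gave 2 (1194 of 18893 genes) without a filter on low values, 6 (1908 genes) with median-of-ratios scaling and 6 (1681 of 11920 genes) with G + C and length removed. There were 19 (5824 genes) with weights and 0 to 11 (1 to 3952 genes) with 1 library left out. With same-numbered libraries as correlated there were 27 (8982 genes), from a negative estimate that narrows the SE of this contrast. OB minus NZ had 14 calls, where 1186 of all tested genes were called. It gave 8 (956 genes) with median-of-ratios scaling and 10 (836 of 19285 genes) without the filter. There were 17 (2264 genes) with weights, 17 (1711 of 12081 genes) with G + C and length removed and 0 to 17 (10 to 1595 genes) with 1 library left out. OB minus OC, with 0 calls, gave 13 with weights (945 genes in all) and 0 to 2 with 1 library left out (2 without HET replicate 3, 31 genes in all). The F test over NZ, OB and OC had 6 calls, where 388 of all tested genes were called. It gave 3 (121 of 19285 genes) without the filter, 18 (1897 genes) with weights and 12 (964 of 12081 genes) with G + C and length removed. Leaving out 1 library gave 0 to 11 (4 to 727 genes). The count was 0 without KO replicate 7, HET replicate 1 or control replicate 3, where 12, 4 and 4 of all tested genes were called. The cause was not tested. The other 5 genotype comparisons kept 0 calls under each alternative run. With the replicate block, 0 members were called in conventional KO against WT, and it changed no other call; in the conditional table same-numbered libraries correlated at -0.308 to 0.444, so those numbers are not taken as pairs. Depth is unknown, so no counting error can be set beside low values.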
